A study of Mus musculus with 6 samples.

Results

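The genes described here are 10 genes of lipid handling in the absorptive cells of the small intestine, namely Fabp1, Apoa1, Apoa4, Mttp, Apob, Dgat1, Fabp2, Rbp2, Cd36 and Angptl4, out of 55414 genes in the count table. They were listed by name, and Mttp and Angptl4 drew attention because they were lower after zinc depletion in these same libraries. The diet contrast therefore had a part in the choice of genes, and its values for them are a description, with no test. The question was whether Mttp and Angptl4 moved as did Fabp1, Apoa1 and Apoa4, the genes taken to mark RNA carried over from enterocytes into the sort, or apart from them.

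The libraries were made from purified Paneth cells of the small intestine of WT mice, collected by FACS, and the study's methods name the strain as C57BL/6J. Of the 6 libraries, 3 were of mice fed standard chow, called standard diet below, and 3 of mice fed zinc depleted chow for 7 weeks. All mice of both groups had received TNF 3 hours before sampling, so the effect of TNF itself was not measured. The design text speaks of 4 biological replicates per group, and the 3 labelled per group were analysed. The study describes its libraries as made from individual mice. The sources used here do not give the dose of TNF or the age of the mice.

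Paneth cells secrete antimicrobial peptides at the crypt base, whereas enterocytes on the villus absorb dietary fat. In enterocytes fatty acids are bound by small cytosolic carriers, re-esterified to triglyceride at the endoplasmic reticulum and loaded onto apolipoprotein B to form chylomicrons, which leave the cell for the lymph. Angptl4 is a secreted inhibitor of lipoprotein lipase, the enzyme that releases fatty acids from such particles, and its gene is a classical target of the fatty acid sensing nuclear receptors of the PPAR family.

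The members made up a very small part of these libraries. Their summed counts were 810, 1169 and 353 in standard diet replicates 1, 2 and 3 and 296, 193 and 364 in the zinc depleted replicates, which was between 0.0026% and 0.019% of the 6139397 to 12772373 counts of a library. The Paneth cell product Lyz1 alone took between 12% and 19.2%. Levels are given as CPM, counts relative to the TMM-scaled size of each library, with TMM factors between 0.46 and 1.73. On that scale the 3 counts that a count of 0 still allows correspond to 0.206 to 0.631 CPM per library. This limit covers counting error only. In bulk RNA, fewer cells of a type and less RNA per cell cannot be told apart.

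The stretch upstream of the start site was read from the GRCm39 genome for the members, and some of these sequences are shown. Capitals mark the letters TGACCT, which on the other strand read AGGTCA, the half-site bound by nuclear receptors such as PPAR, RXR and HNF4. The start is that of the canonical transcript, which for Mttp and Rbp2 lies inside the annotated span of the gene. The first 2 sequences are the 120 bases before the start of Fabp1, the gene with the widest range of log2 CPM in the set, and of Angptl4. The other 2 are 30-base stretches around the half-site of Mttp and of Rbp2, shown because these genes held that half-site.
Fabp1 (chr6:71176689-71176808, plus strand): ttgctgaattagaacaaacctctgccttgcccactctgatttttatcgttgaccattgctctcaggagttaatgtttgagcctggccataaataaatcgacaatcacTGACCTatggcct
Angptl4 (chr17:34000805-34000924, minus strand): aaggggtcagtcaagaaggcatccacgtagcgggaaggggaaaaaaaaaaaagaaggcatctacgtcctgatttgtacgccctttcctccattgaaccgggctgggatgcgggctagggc
Mttp (chr3:137837162-137837191, minus strand): gagtttggaatcTGACCTttcccctataga
Rbp2 (chr9:98372520-98372549, plus strand): gagctgggcttaTGACCTttgactctatta

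The half-site lay at bases -13 to -8 from the start of Fabp1, -41 to -36 from that of Mttp and -44 to -39 from that of Rbp2. In the 250 bases upstream of the start, searched on both strands, AGGTCA was found in these 3 of the 10 members and in 13.1% of 21770 protein-coding promoters. The TATA box letters TATAAA were found on the gene's own strand for Apob and on the opposite strand for Rbp2. On either strand they were found in 11.9% of all promoters. The direct repeat of PPAR and RXR (the half-site in tandem, 1 base apart), the HNF4 core (CAAAGTCCA) and the palindromic HNF1 site were in no member and in 0.0367%, 0.372% and 0.00459% of all promoters. For Angptl4, Apoa1, Apoa4, Fabp2, Cd36 and Dgat1 none of the 5 motifs was in the window. An annotated exon covered all 250 bases of that window for Apoa4 and Dgat1, 204 for Cd36, 90 for Rbp2 and 65 for Mttp. The start used for Cd36 and for Dgat1 also lies inside the annotated span of the gene. A match describes letters and not a bound site. Only exact letters were counted, so imperfect versions of a motif were missed. As exact letters the PPAR and RXR repeat, the HNF4 core and the HNF1 site are so rare that their absence from 10 members says little.

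The 3 carry-over genes were concentrated in 1 library. Fabp1 (ENSMUSG00000054422, chromosome 6, 71176809 to 71182016, plus strand), the liver-type fatty acid binding protein that is abundant in villus enterocytes, had 24, 301 and 4 counts on standard chow against 19, 9 and 26 after zinc depletion. In CPM this was 1.89, 32.6 and 0.446 against 1.3, 1.89 and 4.43. Standard diet replicate 2 stood far above the other 5 libraries, and the groups overlapped.

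Apoa1 (ENSMUSG00000032083, chromosome 9, 46139878 to 46142212, plus strand), the main protein of high density lipoprotein, had 0, 46 and 2 counts on standard chow against 1, 6 and 10 after zinc depletion. Apoa4 (ENSMUSG00000032080, chromosome 9, 46151994 to 46154757, plus strand), an apolipoprotein of chylomicrons made by enterocytes during fat absorption, had 2, 20 and 0 counts against 0, 1 and 1. Both genes lie in the same apolipoprotein cluster on chromosome 9, both were highest in standard diet replicate 2, and in both the groups overlapped. The summed CPM of the 3 genes was 2.05, 39.7 and 0.67 on standard chow against 1.37, 3.37 and 6.3 after zinc depletion, so that the lowest library of all was a standard diet library.

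The unevenness can be put as the share of a gene's CPM, summed over the 6 libraries, that lay in standard diet replicate 2. It was 76.6% for Fabp1, 60.5% for Apoa1 and 80.1% for Apoa4, beside a median of 16.3% and a 95th percentile of 29.4% among the 9749 tested genes. Of 20 enterocyte markers outside lipid handling, 12 were highest in that library and 8 in another. The alkaline phosphatase gene Alpi had 97.1% and the sucrase-isomaltase gene Sis 83.4% of their CPM there, whereas 2 other brush border genes, Anpep and Mep1b, had 24.3% and 13.3% and were highest elsewhere. The summed CPM of the tuft cell markers was also highest there, at 503 against 30.8 to 133 in the other libraries. Tuft cells are chemosensory cells of the same epithelium. The part of other cell types in the result was not tested.

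**Figure D1:**
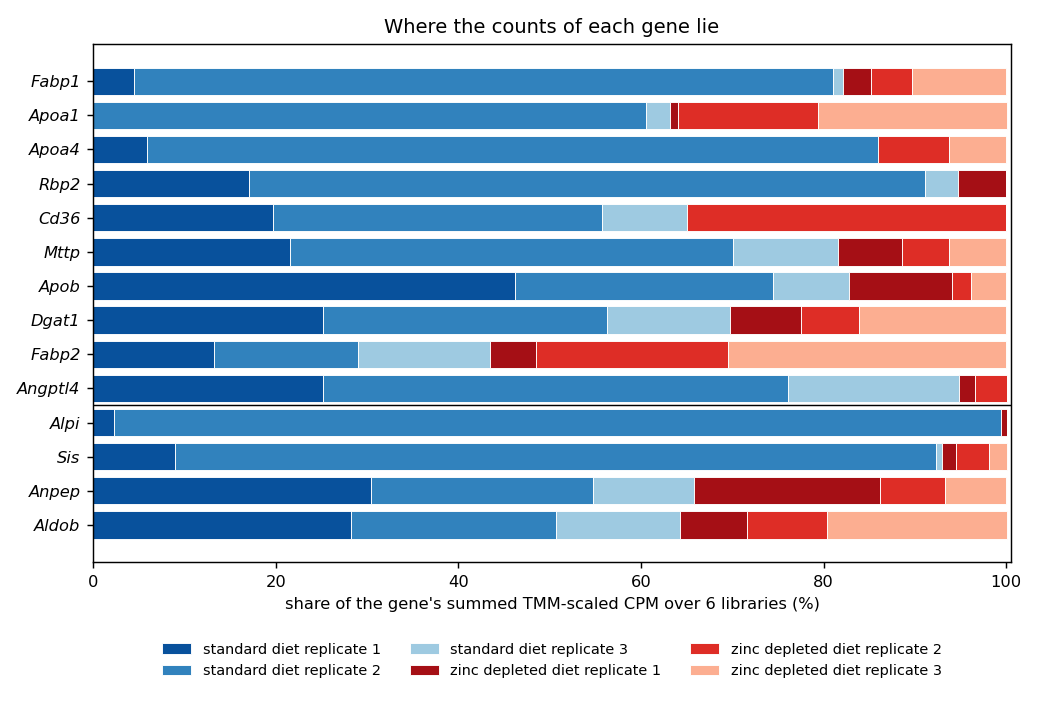
Share of each gene's TMM-scaled CPM (x axis, percent of the sum over 6 libraries) that lay in each library (colours) for the 10 lipid handling genes and, under the line, 4 enterocyte genes outside lipid handling (y axis). Standard diet replicate 2 holds 60.5% to 80.1% of Fabp1, Apoa1 and Apoa4, 48.6% of Mttp, 50.9% of Angptl4 and 15.8% of Fabp2.

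Mttp and Apob stand for the assembly step. Mttp (ENSMUSG00000028158, chromosome 3, 137795612 to 137850729, minus strand), the large subunit of the microsomal transfer protein that lipidates apolipoprotein B, had 155, 256 and 59 counts on standard chow against 58, 14 and 21 after zinc depletion. In CPM this was 12.2, 27.7 and 6.59 (mean 15.5 ± 10.9, SD, n = 3) against 3.98, 2.95 and 3.58 (mean 3.5 ± 0.522, SD, n = 3). All 3 standard diet libraries were above all 3 zinc depleted libraries, and replicate 2 was again the highest. The fitted log2 fold change was -2.13 (SE 0.53), a level 4.37 times lower after zinc depletion.

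Apob (ENSMUSG00000020609, chromosome 12, 8027648 to 8066835, plus strand), the structural protein of chylomicrons, had 181, 81 and 23 counts on standard chow against 51, 3 and 7 after zinc depletion. In CPM this was 14.3, 8.77 and 2.57 against 3.5, 0.631 and 1.19, so that the groups overlapped by standard diet replicate 3 and zinc depleted replicate 1. The log2 fold change was -2.15 (SE 0.71), close to that of Mttp, but the peak differed. Standard diet replicate 1 held 46.2% of the Apob CPM and replicate 2 held 28.3%. The ratio of Apob to Mttp counts, chosen after the values were seen, was 1.17, 0.316 and 0.39 on standard chow against 0.879, 0.214 and 0.333 after zinc depletion, and these values overlapped.

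Angptl4 (ENSMUSG00000002289, chromosome 17, 33992724 to 34000804, minus strand) had the largest difference of the members that were tested. It had 38, 56 and 20 counts on standard chow against 3, 2 and 0 after zinc depletion. In CPM this was 3, 6.06 and 2.23 (mean 3.76 ± 2.03, SD, n = 3) against 0.206, 0.421 and 0 (mean 0.209 ± 0.21, SD, n = 3). The groups did not overlap, and each zinc depleted library was at or below the level of 3 counts. The fitted log2 fold change of -4.15 (SE 0.85), a level 17.7 times lower, rests on 5 counts in all after zinc depletion.

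In contrast to the carry-over genes, Angptl4 had 20 counts in standard diet replicate 3, the library in which Fabp1, Apoa1 and Apoa4 together had 6 counts. The genes that encode partners of the protein were not found: Lpl, the lipase that it inhibits, and Gpihbp1, which anchors that lipase to capillary endothelium, had 0 counts in all 6 libraries. Of 5 endothelial markers, Cdh5 and Kdr also had 0 counts in each library. Pecam1 had 2 counts in standard diet replicate 3 and 2 in zinc depleted replicate 1. Tek had 3, 12 and 0 counts on standard chow against 1, 0 and 0 after zinc depletion. Esam was found in each library, with 40, 44 and 14 counts against 16, 13 and 19. The related Angptl6 and Angptl8 had at most 1.7 CPM in any library and were not tested.

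Dgat1 (ENSMUSG00000022555, chromosome 15, 76385083 to 76396476, minus strand), which carries out the last step of triglyceride synthesis, had 149, 134 and 56 counts on standard chow against 53, 14 and 44 after zinc depletion. In CPM this was 11.8, 14.5 and 6.25 against 3.64, 2.95 and 7.49, and the groups overlapped by 1 library, zinc depleted replicate 3. Scaled by total counts alone they did not overlap, as was also so for Mttp and Angptl4 and for 10.3% of all tested genes that were lower. The log2 fold change was -1.21 (SE 0.49).

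Fabp2 (ENSMUSG00000023057, chromosome 3, 122688721 to 122693155, plus strand), the intestinal fatty acid binding protein, had another pattern. It had 238, 208 and 185 counts on standard chow against 104, 142 and 255 after zinc depletion, or 18.8, 22.5 and 20.6 CPM against 7.14, 29.9 and 43.4 CPM. The standard diet libraries lay close together with no peak in replicate 2, and the zinc depleted libraries spread on both sides of them. The log2 fold change was 0.37 (SE 0.55), smaller than its error, and it was -0.78 with scaling by total counts.

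The pair of fatty acid binding proteins thus had different patterns in the same libraries. The ratio of Fabp1 to Fabp2 counts, also chosen after the values were seen, was 0.101, 1.45 and 0.0216 on standard chow against 0.183, 0.0634 and 0.102 after zinc depletion. Only in standard diet replicate 2 did Fabp1 have more counts than Fabp2.

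Rbp2 (ENSMUSG00000032454, chromosome 9, 98368121 to 98391834, plus strand), the retinol carrier of the enterocyte, had 20, 63 and 3 counts on standard chow against 7, 0 and 0 after zinc depletion. Standard diet replicate 2 held 74% of its CPM, and the groups overlapped by standard diet replicate 3 and zinc depleted replicate 1. Cd36 (ENSMUSG00000002944, chromosome 5, 17986432 to 18094067, minus strand), a fatty acid receptor of the cell surface, had 3, 4 and 1 counts against 0, 2 and 0, which is too few to read a difference at this depth. Neither gene passed the filter on low counts, nor did Apoa1 and Apoa4, so 6 of the 10 members were tested.

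**Figure D2:**
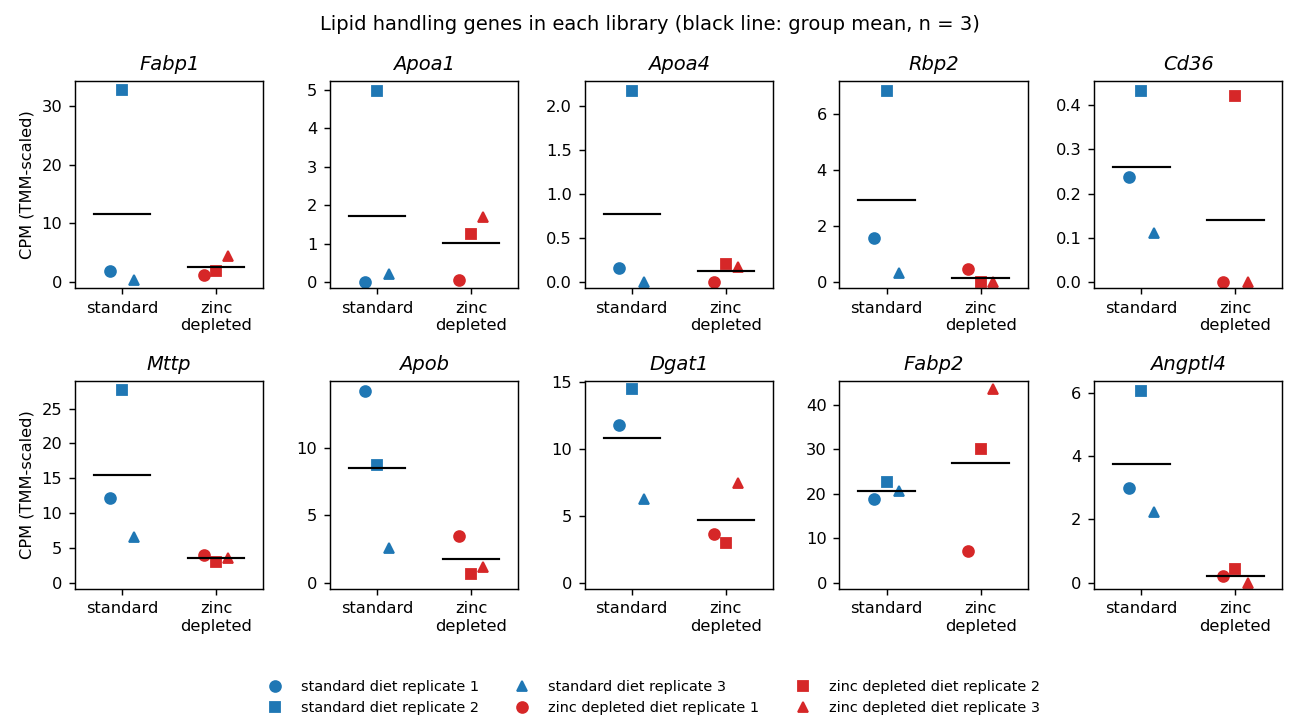
TMM-scaled CPM (y axis, a separate linear scale for each gene) of the 10 lipid handling genes in the 3 standard diet (blue) and 3 zinc depleted (red) libraries, with marker shapes for replicates 1 to 3 and a black line at the group mean. Standard diet replicate 2 is the highest library for Fabp1, Apoa1, Apoa4, Rbp2, Cd36, Mttp, Dgat1 and Angptl4, and only in Mttp and Angptl4 do the groups not overlap.

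Per kilobase of the canonical transcript, the level over the 6 libraries was 24.6 CPM for Fabp2 and 12.6 for Fabp1, then 4.11 for Dgat1, 2.4 for Mttp and 2.21 for Rbp2. Below these came Apoa1 at 0.926, Angptl4 at 0.601, Apob at 0.37, Apoa4 at 0.248 and Cd36 at 0.0572. With standard diet the level per kilobase was 21.4 ± 1.93 (SD, n = 3) for Fabp2 and 20.6 ± 32.2 (SD, n = 3) for Fabp1, so these did not differ beyond their spread. With zinc depletion it was 27.8 ± 19 for Fabp2 and 4.51 ± 2.94 for Fabp1 (SD, n = 3). Dgat1 at 5.74 ± 2.23 and Mttp at 3.91 ± 2.76 on standard chow (SD, n = 3) were likewise within each other's spread.

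No gene passed the adjusted threshold of 0.05 in edgeR's quasi-likelihood test (0% of 9749), and 645 genes had an unadjusted p under 0.05. limma-voom called 0 genes, with 625 at an unadjusted p under 0.05, and DESeq2 called 8 genes. DESeq2 gave no adjusted p for Angptl4, Mttp, Fabp1, Apob and Dgat1, so these could not be called. Without the filter on low counts edgeR called 76 of 17790 genes (0.427%), among them 5 of the 10 members (Angptl4, Mttp, Fabp1, Rbp2 and Apob). Of the 10 members, 2 (Mttp and Angptl4) were lower without overlap in CPM, a pattern found in 6.58% of the tested genes. Of the 6 members tested, 5 had a log2 fold change below 0, as did 50% of all tested genes. An unadjusted p under 0.05 was found for 4 of the 6, all lower, where 4.03% of all tested genes were lower and 2.58% higher at that level. These counts are given for reference, since the contrast had served to choose members.

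Whether Mttp and Angptl4 followed the carry-over genes was first examined without the library that held most of them. Leaving out standard diet replicate 2 turned the log2 fold change of Fabp1 from -2.22 (SE 1.16) to 1.06. Under the same omission Mttp was at -1.41, Angptl4 at -3.62, Apob at -2.14 and Dgat1 at -0.95. Fabp2 was at 0.44. Over the omission of each of the 6 libraries in turn, the log2 fold change ranged from -2.44 to -1.41 for Mttp and from -4.63 to -3.62 for Angptl4.

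The sign of Fabp1 thus depended on 1 library, whereas those of Mttp, Apob, Dgat1 and Angptl4 stayed below 0 in each omission. For Mttp and Angptl4, whose groups do not overlap, the sign of a difference in means cannot change by omitting a library. For Apob the range was -3.17 to -1.57, and for Dgat1 it was -1.65 to -0.95. Fabp2 ranged from -0.14 to 0.84 and changed sign without zinc depleted replicate 3.

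**Figure D3:**
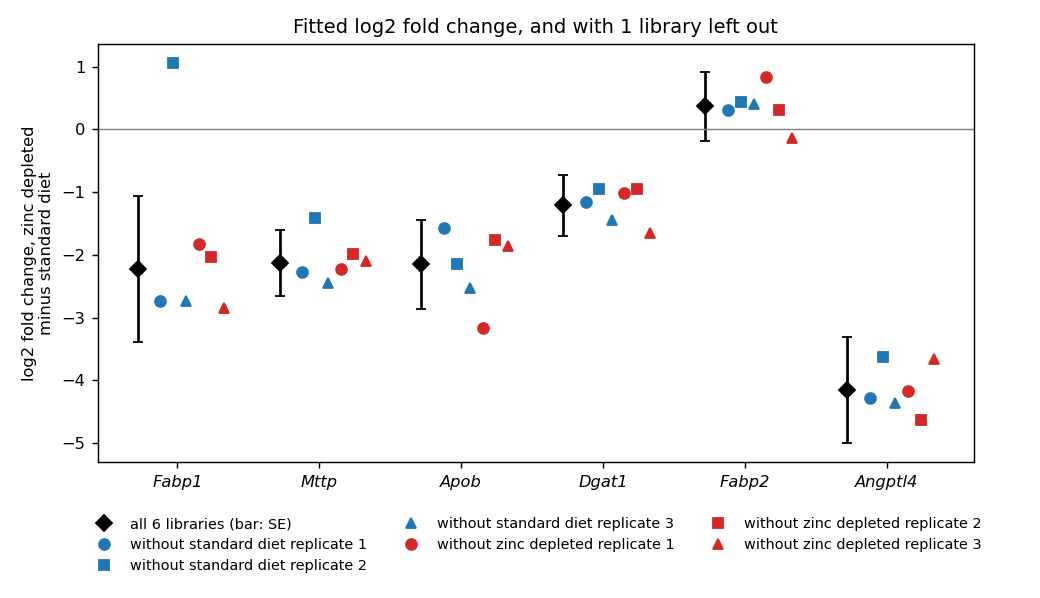
Fitted log2 fold change (y axis, zinc depleted minus standard diet) of the 6 tested lipid handling genes with all 6 libraries (black diamonds, bars show the SE) and with each library left out in turn (coloured markers). Without standard diet replicate 2, Fabp1 moves from -2.22 to 1.06, Mttp from -2.13 to -1.41 and Angptl4 from -4.15 to -3.62.

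The second comparison was a ratio within each library, which does not depend on the scaling between libraries. Mttp counts divided by the summed counts of Fabp1, Apoa1 and Apoa4 were 5.96, 0.698 and 9.83 on standard chow against 2.9, 0.875 and 0.568 after zinc depletion. Standard diet replicate 2 had the lowest ratio of its group, below those of zinc depleted replicates 1 and 2, so the groups overlapped. The mean log2 ratio was 1.74 ± 1.98 (SD, n = 3) against 0.17 ± 1.2 (SD, n = 3), a difference of -1.57 that was within the spread.

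For Angptl4 the same ratio was 1.46, 0.153 and 3.33 on standard chow against 0.15, 0.125 and 0 after zinc depletion. The groups did not overlap, but the lowest standard diet value and the highest zinc depleted value nearly touched, at 0.153 and 0.15. In the mean log2 ratio, with 0.5 added to both terms, the groups overlapped slightly, and the difference was -3.67 with a pooled SD of 2.17. Relative to Fabp1, Apoa1 and Apoa4, then, Mttp overlapped between the diets and Angptl4 was separated only by that narrow gap before 0.5 was added. The carry-over genes were too few and too uneven, at 1 to 301 counts where found, for a finer comparison.

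A broader denominator was less uneven. The 20 enterocyte markers outside lipid handling summed to 249, 264 and 132 CPM on standard chow against 106, 97 and 161 CPM after zinc depletion. Anpep, the brush border aminopeptidase and the highest of these markers, had 82.7, 66.1 and 30.2 CPM against 55.3, 19.1 and 18.2 CPM. Of the 20 markers, standard diet replicates 1, 2 and 3 had counts for 18, 20 and 16 and the zinc depleted replicates for 15, 14 and 11. The sum was about as high in standard diet replicate 1 as in replicate 2, and the groups overlapped. Of the 10 markers that were tested, 7 had a log2 fold change below 0, with a median of -0.65. Of all tested genes 50% were below 0.

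Relative to that sum, Mttp was at 0.0492, 0.105 and 0.0497 on standard chow against 0.0374, 0.0304 and 0.0222 after zinc depletion. Angptl4 was at 0.0121, 0.023 and 0.0169 against 0.00194, 0.00434 and 0. Both were lower after zinc depletion without overlap, by 1.09 and 3.19 on the log2 scale of the ratio as the difference of group means, with pooled SDs of 0.51 and 1.24. Dgat1 was also lower without overlap, at 0.0473, 0.055 and 0.0472 against 0.0342, 0.0304 and 0.0464. Apob, Fabp2, Rbp2 and Cd36 overlapped. The share of all tested genes without overlap in this ratio was not computed, so how common the pattern is remains unknown.

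**Figure D4:**
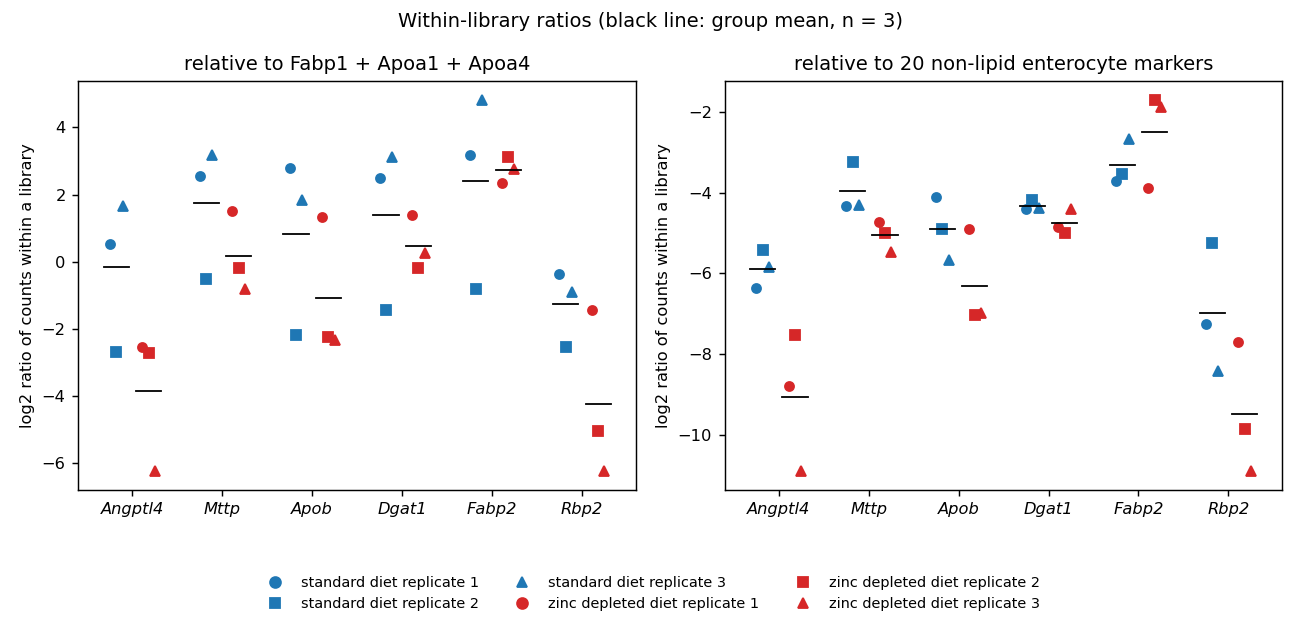
Log2 ratio of counts within a library (y axis, 0.5 added to both terms) of 6 lipid handling genes to the sum of Fabp1, Apoa1 and Apoa4 (left) and to the sum of 20 enterocyte markers outside lipid handling (right), for standard diet (blue) and zinc depleted (red) libraries with a black line at the group mean. On the left the groups overlap for every gene, and on the right Angptl4, Mttp and Dgat1 are lower in all 3 zinc depleted libraries.

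Angptl4 was also set against Mttp. The ratio of Angptl4 to Mttp counts was 0.245, 0.219 and 0.339 on standard chow against 0.0517, 0.143 and 0 after zinc depletion, without overlap. This ratio was likewise chosen after the values were seen, and the share of all tested genes without overlap relative to Mttp was not computed. Dgat1 relative to Mttp was 0.961, 0.523 and 0.949 against 0.914, 1 and 2.1, with overlap.

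Likeness of pattern was measured as the root mean square difference of log2 CPM, each centred on its mean over the 6 libraries. They describe 6 libraries, in which all genes compared share each library's depth and cell mixture. From the summed carry-over genes the distance was 0.24 for Fabp1, which dominates that sum, 0.74 for Apoa4 and 0.87 for Apoa1, and it was between 1.46 (Mttp) and 2.12 (Angptl4) for the other 7 members. From the summed enterocyte markers outside lipid handling it was 0.27 for Dgat1, 0.67 for Mttp, 1.03 for Apob and 1.43 for Angptl4. All 7 members were nearer to the broad enterocyte sum than to the carry-over genes. This distance also depends on how widely a profile ranges. On the centred log2 scale the carry-over sum ran from -2.10 to 3.40 and the broad sum from -0.69 to 0.76. A smaller distance from the flatter sum therefore does not by itself show a closer likeness. For Angptl4 the broad sum was the nearest of those compared, but only narrowly, at 1.43 against 1.44 for the summed proliferation markers. Its distance was 1.47 from the sum of Alpi, Sis, Lct and Enpep and 1.49 from PPAR targets and oxidation genes. From endothelial and stem cell markers it was 1.53 and 1.54, so this order does not place Angptl4 with 1 cell type.

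Fabp2 was nearest to the summed enteroendocrine markers, at 0.20, among the marker sums compared. The enteroendocrine sum ranged from 39.3 to 54.9 CPM on standard chow and from 18.8 to 86.3 CPM after zinc depletion. Rbp2 was nearest to the sum of Alpi, Sis, Lct and Enpep, at 0.99, a set picked from the enterocyte markers after their values were seen. Lct is the lactase gene and Enpep encodes glutamyl aminopeptidase, and that sum was 2.53, 29.4 and 0.223 CPM on standard chow against 0.343, 0.631 and 0.341 CPM after zinc depletion.

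The genes outside the set with the pattern most like that of Mttp were Msi1, an RNA-binding protein of crypt progenitors, at a distance of 0.35, the glucose transporter gene Slc5a1 at 0.42 and Tbc1d17 at 0.43, where the median over 6480 genes was 1.2. Slc5a1 is itself 1 of the 20 enterocyte markers outside lipid handling. It had 27.6, 40.6 and 15.3 CPM on standard chow against 8.86, 9.05 and 14 CPM after zinc depletion, without overlap. Its log2 fold change was -1.39 (SE 0.44). For Angptl4 they were Rgmb, a co-receptor for bone morphogenetic proteins, at 0.82, the inflammasome sensor gene Nlrp6 at 0.93 and the pyridoxal kinase gene Pdxk at 0.94, with a median of 1.81. Rgmb had 51.4, 44.7 and 11.1 CPM against 9.82, 6.52 and 3.75 CPM.

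Among 73 further genes of lipid handling in 9 lists, 54 were tested. None passed the adjusted threshold, 34 had a log2 fold change below 0 and 20 above, and the median was -0.18, where that of all tested genes was 0.00. Scaled by total counts alone the median of all tested genes was -0.66, so these signs hold for the TMM scale. Groups were lower without overlap for 5 of the 54 genes, namely Slc27a2, Creb3l3, Cpt2, Acot1 and Hnf4g, and higher for 3, where 6.58% and 3.51% of all tested genes were.

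Genes that act next to the members in fat absorption had fold changes in both directions. In uptake and activation, where 6 of 8 genes were tested, the median was -0.50, with the acyl-CoA binding protein gene Dbi at 0.69 (SE 0.55) and the scavenger receptor gene Scarb1 at -1.58 (SE 0.72). In triglyceride synthesis, where Dgat1 belongs by function, all 8 genes were tested, 4 were below 0 and the median was -0.04. Agpat2, which acylates lysophosphatidic acid, was at 0.93 (SE 0.46), while Mogat2, the monoacylglycerol acyltransferase of the enterocyte, was at -1.30 (SE 0.91) with 1.97, 5.2 and 1.45 CPM against 0.343, 0.21 and 3.06.

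In chylomicron assembly 2 of 8 tested genes were below 0, and the median was 0.24. The 2 were Creb3l3 and, outside the naming rule, Tm6sf2 at -1.49 (SE 0.80). Tm6sf2 had 36, 58 and 7 counts on standard chow against 7, 9 and 8 after zinc depletion. The 6 above 0 were P4hb, Sar1b, Surf4, Mia2, Mia3 and Apobec1. Since the list holds genes of general function such as P4hb, its median does not stand for chylomicron assembly alone. P4hb, which is the small subunit of the microsomal transfer protein as well as a general protein disulfide isomerase, had 1047, 1022 and 1740 CPM on standard chow against 1437, 2300 and 3192 CPM after zinc depletion, or 0.86 (SE 0.51) as a log2 fold change. Scaled by total counts alone its values were 1807, 1537 and 1563 CPM against 2095, 1471 and 1468 CPM, where both the highest and the lowest were of zinc depleted libraries. Creb3l3, a transcription factor of the endoplasmic reticulum membrane in enterocytes and liver, had 2.53, 5.09 and 2.68 CPM against 1.37, 1.26 and 0.511 CPM, or -1.66 (SE 0.61).

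In the sterol list the median was -0.10 over 6 tested genes, with the sterol exporter gene Abcg8 at -1.22 (SE 0.82). For lipid droplets and lipolysis it was -0.19 over 8 genes, with the lipid droplet coat gene Plin2, another known PPAR target, at -1.0 (SE 0.44) and the triglyceride lipase gene Pnpla2 at -0.29 (SE 0.38). In the retinoid list, next to Rbp2, 2 of 5 genes were tested. The homeobox gene Isx was at -0.96 (SE 0.52).

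Other PPAR targets and oxidation genes are the group to which Angptl4 belongs by its known regulation. Of 10 tested genes 8 were below 0, with a median of -0.86 and 2 without overlap. Acot1, an acyl-CoA thioesterase, had 11.1, 5.3 and 2.12 CPM on standard chow against 0.412, 0.21 and 1.7 CPM after zinc depletion, or -3.04 (SE 0.81). Acaa2, the last enzyme of mitochondrial fatty acid oxidation, was at -0.51 (SE 0.42).

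Outside the naming rule, and chosen after its values were seen, Cpt1a, which admits fatty acids to the mitochondrion, had 59.5, 41.6 and 9.49 CPM on standard chow against 15.4, 6.1 and 5.79 CPM after zinc depletion. Standard diet replicate 3 lay within the range of the zinc depleted libraries, so the groups overlapped, and standard diet replicate 1, not replicate 2, was the highest. None of the 10 tested genes of this list passed the adjusted threshold.

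Among regulators, where 6 of 8 genes were tested, 4 were below 0 and 2 above, and the median was -0.74. The PPAR receptor genes, also outside the naming rule, differed in direction. Ppard was at 0.79 (SE 0.58) and Pparg at -0.42 (SE 0.79). Ppara was not tested, with 24 counts in all on standard chow against 23 after zinc depletion. Hnf4g, a nuclear receptor of the intestinal epithelium, had 9.55, 7.25 and 4.58 CPM on standard chow against 2.47, 1.47 and 1.87 CPM after zinc depletion, or -1.84 (SE 0.48), without overlap. Its paralog Hnf4a, a known regulator of enterocyte genes that include Apob and Mttp, had 99.9, 89.8 and 29.6 CPM against 52.5, 26.5 and 26.1 CPM, or -1.06 (SE 0.51).

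**Figure D5:**
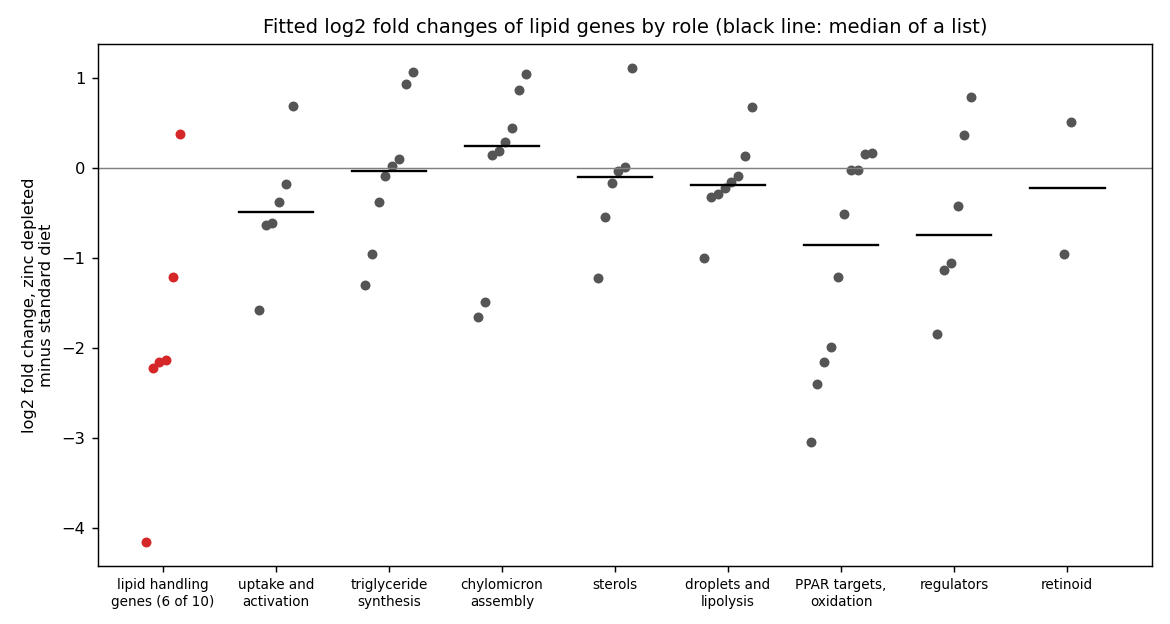
Fitted log2 fold changes (y axis, zinc depleted minus standard diet, TMM scaling) of the 6 tested lipid handling genes (red) and of 54 other tested genes in 8 lists by role (grey), with a black line at the median of each list. The medians run from -0.86 for PPAR targets and oxidation to 0.24 for chylomicron assembly, and Angptl4 at -4.15 lies below every other gene shown.

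Of 10 marker sums for cell types and proliferation, 9 overlapped between the diets. The summed proliferation markers were 77.9, 40.3 and 46.4 CPM on standard chow against 17.8, 18.5 and 38.8 CPM after zinc depletion, and were the 1 sum without overlap. Stem cell markers were 2237, 1007 and 1392 CPM against 499, 819 and 1223 CPM, with overlap. All 9 Paneth markers had counts in each library, and Defa24, the highest of them, had 123569, 141478 and 276398 CPM against 149610, 441446 and 664706 CPM. The log2 fold change was above 0 for all 9, with a median of 1.16, and none passed the adjusted threshold. Relative to total counts alone, Defa24 had 213286, 212876 and 248187 CPM against 218081, 282425 and 305642 CPM. The part of these differences in the levels of Mttp, Angptl4 and the other members was not tested.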

How the data were processed

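RNA-seq was performed on 6 libraries of sorted Paneth cells, 3 per diet. The values deposited by the authors are raw counts of reads for each gene, in 1 column per library. The labels name Trimmomatic 0.39, STAR 2.7.10a and the mm39 build, whereas the study's methods give another STAR release with a GENCODE annotation of GRCm39. The sources used here do not give the read counter, its use of strand or its handling of multi-mapped reads. Names and positions came from GENCODE on GRCm39 by gene identifier (54749 of 55414 matched). Sequences were read from the same build.

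Differential expression was fitted over the whole table with edgeR 4.0.16 in R 4.3.3 (quasi-likelihood F test, two-sided, TMM, filterByExpr, diet as the only term), which left 9749 genes. P-values were adjusted over these by the Benjamini-Hochberg method at 0.05. Libraries held 6139397 to 12772373 counts, and all differed by more than sampling noise (chi-square per degree of freedom 15.3 to 168 within groups). CPM are TMM-scaled unless stated, and profile distances used a prior count of 2. On simulated counts for this diet comparison, 176 of 183 genes changed 8-fold were recovered among 9288 tested with 4 unchanged genes called, and 35 of 193 genes changed 4-fold among 9460 with 0 unchanged called.

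All 10 members were named. From each pathway list the tested gene with the highest counts per kilobase and that with the largest absolute fold change were named, together with the highest enterocyte and Paneth markers and the 3 tested genes of mean log2 CPM of at least 2 nearest in profile to Mttp and to Angptl4. Not every gene so selected is reported here. Members, lists and alternatives were chosen with earlier results of these data known. The alternatives were DESeq2 1.42.0, limma-voom (limma 3.58.1), RLE factors, total counts, scaling without alpha-defensins, Lyz1 and Itln1, no filter on low counts, a replicate block, other denominators and omission of each library.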

Additional observations from a re-analysis of the deposited data

How the results depend on the processing

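The count of genes called was 0 with edgeR, 8 with DESeq2 and 76 without the filter on low counts, and over the omission of each library it ranged from 0 to 28, where the 28 arose without standard diet replicate 3. The number of members below 0 was 5 of 6, 9 of 10 with DESeq2 and 9 of 10 without the filter, the last 2 because 10 members then had a value, and it was 4 to 7 when a library was omitted. Fabp1 was at -0.63 with limma-voom and -0.67 with the replicate block, against -2.22. With a library omitted, Fabp1 ranged from -2.85 to 1.06, positive without standard diet replicate 2, and Fabp2 from -0.14, without zinc depleted replicate 3, to 0.84. Fabp2 turned to -0.78 with total counts, which moved the median of all genes to -0.66. For these sign changes the cause was not tested. The log2 ratio to Fabp1, Apoa1 and Apoa4 ranged from -2.70 to -0.84 for Mttp and from -4.93 to -2.47 for Angptl4 over the omissions and other denominators. Same-numbered libraries correlated at 0.15, -0.06 and 0.25 in their deviations, so the numbers were not taken to pair the samples. A replicate block called 0 genes, with 962 at an unadjusted p under 0.05. Counts of 5 in all for Angptl4 with zinc depletion and of 17 or fewer for Apoa1, Apoa4, Rbp2 and Cd36 limit what their ratios can show.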
